A study of Rattus norvegicus with 4 samples.

Results

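The 8 peripheral myelin genes described here are Mbp, Pmp22, Mag, Prx, Ncmap, Cldn19, Pmp2 and Gldn. They were taken by symbol from the 25629 genes counted in single cells of rat dorsal root ganglia, which lie along the spine and hold the somata of sensory neurons with their glia. Each symbol matched 1 row, so all 8 members were found. Their level was followed in myelinating Schwann cells, in the other glia, in cells that make no myelin, and between the CPIP and the Sham group.

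The CPIP group comprised 2 libraries, CPIP 1 and CPIP 2, and the Sham group 2 libraries, Sham 1 and Sham 2. Every library was prepared from the ipsilateral L4-L6 ganglia of 3 male Sprague-Dawley (SD) rats, labelled as wild type and naïve, whose tissue was pooled. The labels leave CPIP unexplained (it commonly stands for chronic post-ischaemia pain, a model in which a limb is starved of blood and then reperfused) and give neither the age of the rats nor the time after the procedure. Enzymes (dispase with collagenase, then papain) freed the cells, and single-cell whole-transcriptome libraries were made on the BD Rhapsody system. A UMI, or unique molecular identifier, tags 1 captured RNA molecule, and counts here are UMIs. The series asks how cells of these ganglia differ between the CPIP and the Sham group.

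Myelin is the stack of Schwann cell membrane that is wound around large axons and lets impulses jump between the gaps called nodes of Ranvier. Its compact part is held together by proteins such as myelin basic protein, while its uncompacted channels, loops and nodal edges hold adhesion and junction proteins. Schwann cells that ensheathe small axons without winding (non-myelinating) and satellite glia, which wrap the neuron bodies, belong to the same neural crest lineage and form no such stack in the adult ganglion.

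The 4 libraries held 11829 to 12828 barcodes and 60885664 to 64550637 UMIs, and 45438 cells were retained after filtering. Between 1 and 5 barcodes were shared by any pair of libraries. Cells were clustered without the 8 members among the variable genes, and clusters were named from markers that include none of them, so each class name rests on those markers alone. The myelinating Schwann class was a single cluster of 1692 cells (514 in CPIP 1, 525 in CPIP 2, 414 in Sham 1 and 239 in Sham 2), with a median of 1744 UMIs per cell. Of its 14 markers, 10 were highest in this class among the 9 classes named from markers; Egr2 and Itgb4 were higher in the non-myelinating class, and Dhh and Cmtm5 in satellite glia. The non-myelinating Schwann class held 2889 cells and satellite glia 14133 cells, and a glial cluster of 2580 cells led by Pou3f2 and Sox10 took no class name. The non-myelinating name is the least certain, since its cluster scored slightly higher for the myelinating markers and was named from its leading genes, and 4 of its 12 markers were highest in it; Scn7a, Cadm2, Chl1 and Prrg4 were. A class and another come from clustering of the same cells, so ratios between classes are a description and carry no test.

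In myelinating Schwann cells all 8 members had their highest level of the 9 named classes, and the distance to the other glia differed widely between members. Levels are given as CPM, the UMIs of a gene per 1000000 UMIs of the class in a library, and compare 1 gene between cells, not different genes. At least 8-fold more than in satellite glia was found in every library for 7 members (all but Pmp2), and at least 8-fold more than in non-myelinating Schwann cells for Mbp, Pmp22, Mag, Prx and Cldn19. Ncmap cannot be placed against non-myelinating Schwann cells, which held none of its UMIs in 3 libraries: in CPIP 2 its 1.95 CPM in myelinating Schwann cells lay below the floor of 3 counts there, 2.28 CPM. Across all genes that averaged at least 1 CPM over the classes compared, 189 of 12038 (1.57%) and 72 of 12410 (0.58%) were at least 8-fold higher, with a level of 0 UMIs counted as lower; on that count Ncmap too would be included, which makes 6 members. Mag and Gldn were also at least 8-fold higher in non-myelinating Schwann cells than in satellite glia in every library, as were 87 of 12130 genes (0.717%).

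Among the proteins of compact myelin, Mbp, which glues the inner faces of the membrane together, read 23713 and 25224 CPM in myelinating Schwann cells of CPIP 1 and CPIP 2 and 20592 and 20911 CPM in those of Sham 1 and Sham 2. Satellite glia held 930 and 1053 CPM in CPIP and 919 and 868 CPM in Sham. The ratio of myelinating Schwann cells to satellite glia lay between 22.4 and 25.5 in the 4 libraries (mean log2 4.58 ± 0.08, SD, n = 4), and that to non-myelinating Schwann cells between 12.3 and 14.8. The classes followed in the order myelinating Schwann cells with 22610.2 ± 2237 CPM, non-myelinating Schwann cells with 1637 ± 85.3 CPM, the Pou3f2-Sox10 glia with 1313 ± 44.0 CPM and satellite glia with 942 ± 78.2 CPM (SD, n = 4 libraries). No 2 neighbours of this order overlapped. Macrophages had 459 ± 56.5 CPM, fibroblasts 104 ± 40.2 CPM, neurons 101 ± 23.0 CPM and endothelial cells 40.0 ± 15.04 CPM; fibroblasts and neurons overlapped, and endothelial cells lay below both.

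Pmp22, a membrane protein whose dosage is linked in humans to hereditary neuropathy, was found at 202 CPM or more on average in each of the 9 named classes. It read 24908 and 21709 CPM in myelinating Schwann cells of CPIP 1 and CPIP 2 and 24134 and 24377 CPM in those of Sham 1 and Sham 2, which was 13.2 to 14.5 times the level in satellite glia and 10.4 to 12.3 times that in non-myelinating Schwann cells. Non-myelinating Schwann cells held 2128 ± 139.5 CPM, the Pou3f2-Sox10 glia 1754 ± 83.5 CPM and satellite glia 1689 ± 38.0 CPM (SD, n = 4). The last pair overlapped. Neurons still had 729.7 ± 39.9 CPM, with pericytes (671 ± 118 CPM), macrophages (589.8 ± 136 CPM) and fibroblasts (542 ± 26.8 CPM) close to them, and smooth muscle (219 ± 34.7 CPM) and endothelial cells (202 ± 19.9 CPM) were lowest and overlapped.

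Pmp2, a fatty acid binding protein of the myelin membrane, differed least between glial classes. It read 478 and 334 CPM in myelinating Schwann cells of CPIP 1 and CPIP 2 and 640.4 and 552 CPM in those of Sham 1 and Sham 2. The level was 2.3 to 4.5 times that of satellite glia (mean log2 ratio 1.72) and 2.40 to 3.39 times that of non-myelinating Schwann cells, and much of it came from 5 to 13 cells in each library. Without the cells at 10 or more Pmp2 UMIs, myelinating Schwann cells held 159 and 203 CPM in CPIP and 237 and 213 CPM in Sham, and satellite glia, with all their cells, 106 and 145 CPM in CPIP and 185 and 171 CPM in Sham. With each cell weighted equally the mean log2 ratio to satellite glia was 0.80. With all cells counted, the Pou3f2-Sox10 glia came next with 306 ± 46.8 CPM, then non-myelinating Schwann cells with 168 ± 28.3 CPM and satellite glia with 152 ± 34.4 CPM (SD, n = 4). This last pair overlapped, with a ratio of 0.958 to 1.39 within libraries. Without cells at 10 or more Pmp2 UMIs, the Pou3f2-Sox10 glia held 253 and 253 CPM in CPIP and 319 and 334 CPM in Sham. In every library this was above the level of myelinating Schwann cells counted the same way. All other named classes averaged 31.3 CPM or less.

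Of the members that belong to uncompacted myelin and its contacts, Mag, a receptor of the inner Schwann cell membrane that binds the axon, read 195 and 191 CPM in myelinating Schwann cells of CPIP 1 and CPIP 2 and 211 and 201 CPM in those of Sham 1 and Sham 2. Satellite glia held 6 and 4 Mag UMIs in CPIP and 6 and 7 in Sham, so the ratio was 689 to 1144. Non-myelinating Schwann cells held 60 UMIs over the 4 libraries (10.3 ± 2.10 CPM), which put the ratio to them at 15.4 to 23.3. Prx, periaxin, which anchors the outer Schwann cell membrane to the matrix, read 734 and 785 CPM in CPIP and 724 and 789 CPM in Sham, 174 to 291 times the satellite glia level and 39.8 to 58.8 times the non-myelinating level. The 4 libraries overlapped for Prx.

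Cldn19, the claudin that seals the loops of peripheral myelin, read 59.99 and 111 CPM in myelinating Schwann cells of CPIP 1 and CPIP 2 and 64.8 and 77.7 CPM in those of Sham 1 and Sham 2. Its 271 UMIs there stood against 31 in satellite glia, a pooled ratio of 231 (95% interval 159 to 346, exact, covering counting error only). Gldn, gliomedin, the secreted ligand that gathers sodium channels at nodes, read 1288 and 944 CPM in CPIP and 1139 and 1272 CPM in Sham. Its ratio was 752 to 3036 over satellite glia and 5.73 to 20.8 over non-myelinating Schwann cells, which held 106 and 165 CPM in CPIP and 102 and 61.2 CPM in Sham. That second ratio depends on where the class is drawn. At Leiden resolution 2.0, a finer clustering, the cluster named non-myelinating Schwann (2021 cells) held 8.06 CPM of Gldn and 1.68 CPM of Mag, and a cluster of 1949 cells led by Thbs2, Mlip and Fam78b, which took no name because its myelinating and non-myelinating marker scores lay close, held 203 CPM of Gldn and 17.7 CPM of Mag.

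Ncmap, a small membrane protein of uncompacted myelin, was near the limit of detection. Myelinating Schwann cells held 8 and 2 of its UMIs in CPIP 1 and CPIP 2 and 5 and 4 in Sham 1 and Sham 2. Satellite glia held 1 UMI in 90380526, a pooled ratio of 501 (95% interval 79.7 to 20819), and non-myelinating Schwann cells 1, a pooled ratio of 31.9 (5.06 to 1324). Endothelial cells held none in 11768754 UMIs, which makes the level in myelinating Schwann cells at least 21.7-fold higher against a floor of 3 counts over the class.

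**Figure D1:**
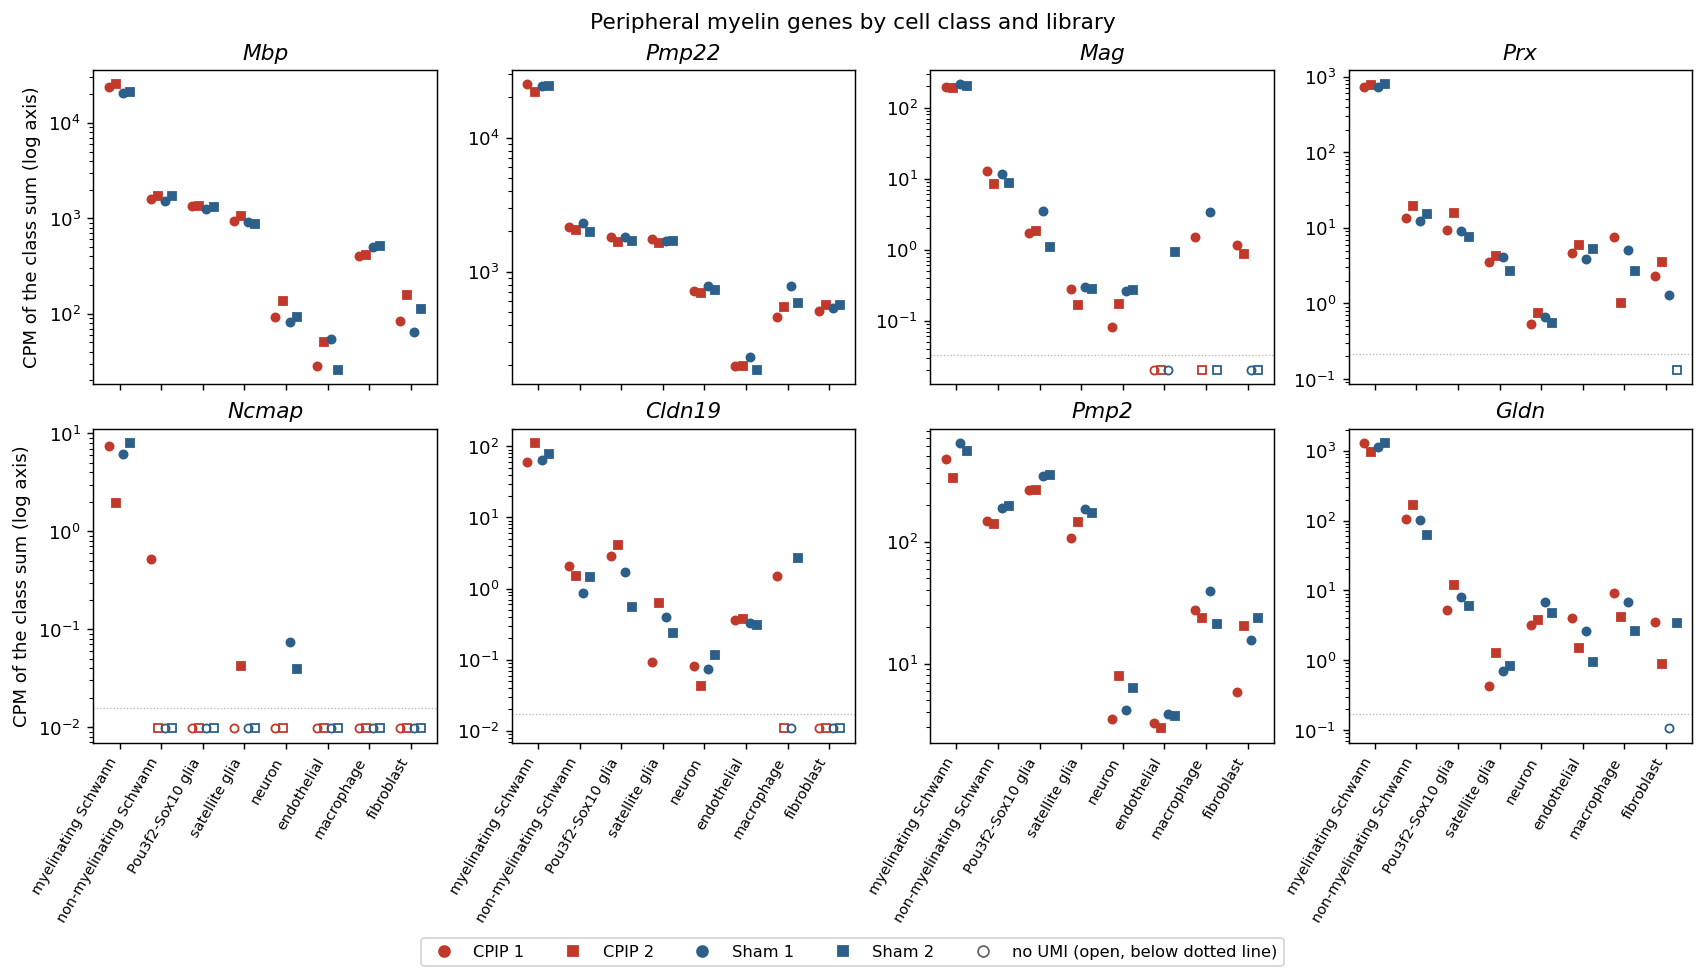
CPM of each of the 8 members (log axis) in 8 cell classes, 1 point per library: red for CPIP, blue for Sham, circles for replicate 1 and squares for replicate 2, with open symbols below a dotted line for 0 UMIs. Each member is highest in myelinating Schwann cells, where Mbp lies between 20592 and 25224 CPM, and Pmp2 falls off least towards the other glia. Much of the Pmp2 level there came from a few cells in each library.

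The promoters of 4 members are shown. Mag, Prx and Cldn19 were over 100-fold above satellite glia in every library, and Pmp22 was spread over nearly all classes. Gldn, whose mean ratio to satellite glia was the highest (752 to 3036), is not shown. RefSeq (GRCr8) windows were found for 7 members, not for Pmp2, and the 250 bases before the annotated start are given 5′ to 3′ on the strand of the gene. Mag is on the minus strand at chr1:95291045-95291294, and Prx, Cldn19 and Pmp22 are on the plus strand at chr1:91914171-91914420, chr5:138148325-138148574 and chr10:48294682-48294931. Capitals mark matches to any of 6 motifs searched on both strands.
Mag: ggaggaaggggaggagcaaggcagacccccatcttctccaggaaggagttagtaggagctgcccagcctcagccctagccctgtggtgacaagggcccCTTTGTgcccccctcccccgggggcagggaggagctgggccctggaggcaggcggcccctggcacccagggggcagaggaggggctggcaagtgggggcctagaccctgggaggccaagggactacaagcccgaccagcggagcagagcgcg
Prx: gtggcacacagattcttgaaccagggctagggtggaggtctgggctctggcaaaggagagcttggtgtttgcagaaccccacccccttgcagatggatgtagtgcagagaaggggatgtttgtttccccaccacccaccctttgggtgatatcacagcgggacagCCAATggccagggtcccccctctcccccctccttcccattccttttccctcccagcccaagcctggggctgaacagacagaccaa
Cldn19: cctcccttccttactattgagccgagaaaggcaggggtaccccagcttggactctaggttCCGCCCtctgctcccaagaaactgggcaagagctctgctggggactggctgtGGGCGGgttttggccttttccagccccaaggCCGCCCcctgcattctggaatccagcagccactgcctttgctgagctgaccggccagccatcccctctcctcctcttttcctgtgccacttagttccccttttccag
Pmp22: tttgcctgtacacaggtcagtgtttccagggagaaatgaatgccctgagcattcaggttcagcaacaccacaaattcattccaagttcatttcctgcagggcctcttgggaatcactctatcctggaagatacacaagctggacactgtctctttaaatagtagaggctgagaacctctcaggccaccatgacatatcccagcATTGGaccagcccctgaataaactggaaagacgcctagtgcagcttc

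The motifs were the SOX-type cores ACAAAG and AACAAT, the EGR-type site GCGNGGGCG, the TATA box TATAAA, the GC box GGGCGG and the CCAAT box CCAAT; SOX10 and EGR2 are transcription factors of Schwann cells. The Mag window held ACAAAG on the minus strand, 152 bases before the start, and 16.3% of all 33469 windows held it. The Prx window held CCAAT 85 bases before the start and the Pmp22 window held it on the minus strand 47 bases before (34.0% of all windows). The Cldn19 window held GGGCGG at 3 places, 190, 138 and 107 bases before the start (30.5% of all windows). The Ncmap window also held it, at 65 bases, and the Gldn window none of the 6 motifs. AACAAT, GCGNGGGCG and TATAAA were found in 10.3%, 4.29% and 12.9% of all windows and in none of the 4 shown. The Mag window was rich in G and C (70.0%, against a median of 51.2% over all windows), and those of Prx and Pmp22 held 58.8% and 48.0%. A match is a description of the letters and does not show binding.

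Outside the Schwann classes, the members did not share 1 common trace level. Pooled over the libraries, endothelial cells held 0.173% of the myelinating Schwann level of Mbp (95% interval 0.158 to 0.189), 0.193% of that of Gldn (0.126 to 0.282) and 0.128% of that of Mag (0.0265 to 0.375). Pmp22 (0.855%, 0.821 to 0.890), Pmp2 (0.719%, 0.516 to 0.975) and Prx (0.653%, 0.496 to 0.844) were above these. The intervals, which cover counting error only, overlapped for Mbp, Gldn, Mag and Cldn19 (0.430%, 0.117 to 1.10), while those of Pmp22, Pmp2 and Prx lay above that of Mbp. The markers of myelinating Schwann cells summed to 346 and 426 CPM in endothelial cells of CPIP 1 and CPIP 2 and 409.96 and 302 CPM in those of Sham 1 and Sham 2; Gjb1 had no UMI there.

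In neurons Prx stood at 0.0819% of the myelinating Schwann level, Mag at 0.100% and Cldn19 at 0.101%, while Gldn stood at 0.410%, Mbp at 0.434%, Pmp2 at 1.11% and Pmp22 at 3.09%. Per 1000 UMIs of Mbp there were 7332 of Pmp22 in neurons, 1790.1 in satellite glia and 1029.6 in myelinating Schwann cells. In satellite glia Gldn stood at 0.0714%, Mag at 0.128%, Cldn19 at 0.434% and Prx at 0.482%, against 4.10% for Mbp, 7.12% for Pmp22 and 31.3% for Pmp2. Non-myelinating Schwann cells held 2.01% of the Prx level, 5.25% of that of Mag, 7.12% of that of Mbp, 8.96% of that of Pmp22, 9.41% of that of Gldn and 34.1% of that of Pmp2.

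**Figure D2:**
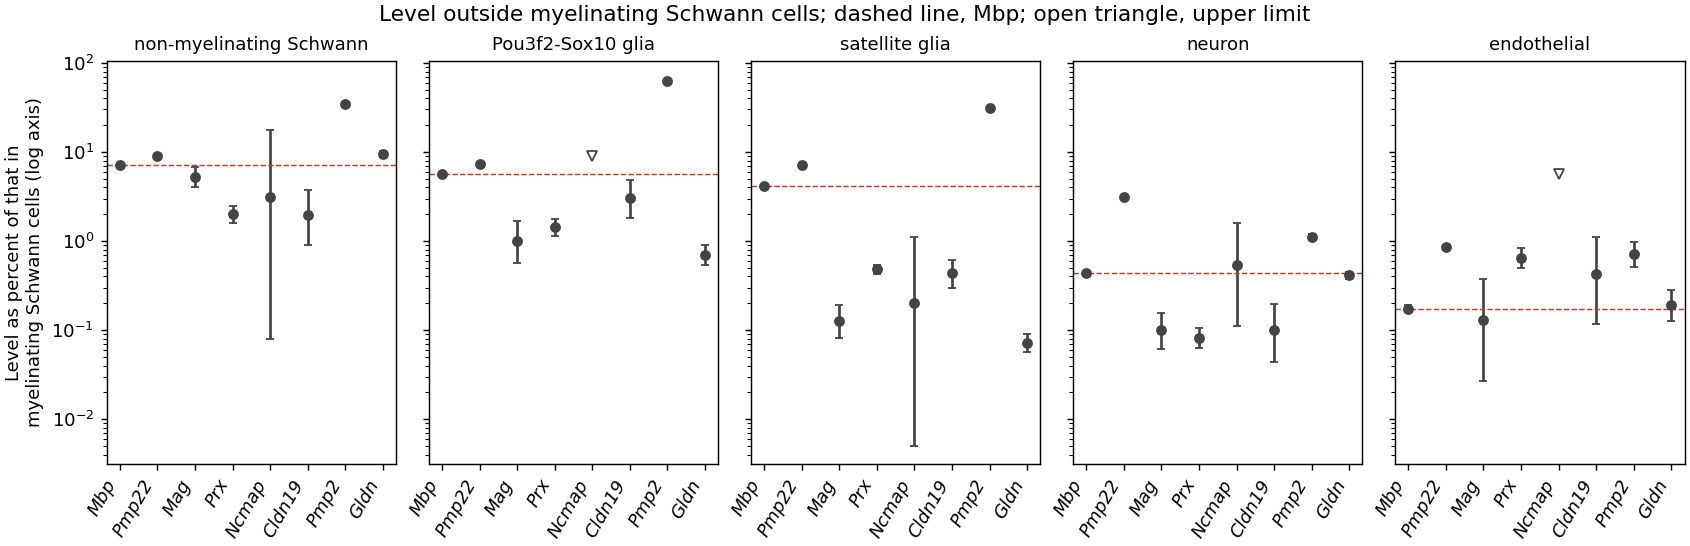
Level of each member in 5 other classes as a percent of its level in myelinating Schwann cells (log axis), pooled over 4 libraries with exact 95% counting intervals; the dashed red line is the percent of Mbp, and an open triangle is an upper limit where no UMI was found. Pmp2 and Pmp22 stand above Mbp in all 5 classes, and Mag stands at 0.128% in both satellite glia and endothelial cells.

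Shares of cells with a UMI were compared at matched depth. After each cell was thinned to 1000 UMIs, which left out 214 of the 1692 myelinating Schwann cells for being shallower, 99.6% of the rest held Mbp, 99.9% Pmp22, 64.0% Gldn, 51.6% Prx, 17.6% Mag, 12.2% Pmp2, 7.78% Cldn19 and 0.541% Ncmap. Unthinned, the shares were 99.3%, 99.9%, 78.3%, 70.5%, 28.4%, 16.2%, 13.2% and 1.12% in that order. Thinned satellite glia (133 of 14133 cells left out) held Mbp in 57.4% of cells and Pmp22 in 79.1%, Pmp2 in 12.8%, but Prx in 0.3%, Gldn in 0.0786% and Mag in 0.0143%. In thinned endothelial cells (395 of 3220 left out), a type outside the glial lineage, Mbp was found in 3.33%, Pmp22 in 16.3%, Prx in 0.496% and Pmp2 in 0.389%. The shares of Mbp, Pmp22 and Pmp2 in satellite glia were above the endothelial ones, and that of Prx was not. Median depths before thinning were 1744 UMIs in myelinating Schwann cells, 5744 in satellite glia and 3114.5 in endothelial cells.

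Members were found together in single cells of the myelinating class. At least 4 of the 8 were present in 1178 of 1692 cells (69.6%), and in 48.9% of those thinned to 1000 UMIs. Thinned non-myelinating Schwann cells reached 4 members in 0.973% of cells, the Pou3f2-Sox10 glia in 0.516%, neurons in 0.0391%, endothelial cells in 0.0708% and satellite glia in 0.0357%.

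Satellite glia, the class with the most cells, held much of the RNA of the broad members in a library. Myelinating Schwann cells, 2.16% to 4.48% of the cells, held 26.2% to 47.7% of all Mbp UMIs of a library and 15.1% to 29.6% of those of Pmp22, against 36.7% to 54.3% and 40.4% to 51.96% in satellite glia. They held 75.9% to 86.7% of the Mag UMIs, 72.7% to 83.2% of those of Prx, 73.6% to 81.2% of those of Cldn19 and 71.3% to 81.2% of those of Gldn. Of Pmp2 they held 4.87% to 14.1%, and satellite glia 61.6% to 75.1%.

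Within myelinating Schwann cells a larger part of the Pmp2 UMIs than of those of Mbp or Pmp22 was held by a few cells. The 5% of cells with the most UMIs of a gene held 13.4% to 15.9% of the Mbp, 15.7% to 18.99% of the Pmp22, 16.6% to 23.3% of the Gldn and 20.8% to 22.0% of the Prx in the 4 libraries. They held 31.8% to 38.8% of the Mag and 44.7% to 58.5% of the Cldn19, genes with few UMIs per cell, and 76.0% to 84.2% of the Pmp2. In satellite glia the same share for Pmp2 was 30.1% to 33.9%. A cut at 10 Pmp2 UMIs, set after the values were seen, was reached by 12 and 6 myelinating cells in CPIP 1 and CPIP 2 and by 13 and 5 in Sham 1 and Sham 2. These cells held 68.9% and 41.2% of the class's Pmp2 UMIs in CPIP and 66.0% and 63.5% in Sham, with up to 106 UMIs in 1 cell.

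Cells rich in Pmp2 were also deeper, with median UMI counts of 5908.5 and 5125.5 in CPIP 1 and CPIP 2 and 4954 and 3660 in Sham 1 and Sham 2, against 1632 to 1811.5 in the other myelinating cells. Their Mag level was 329 and 384 CPM in CPIP and 304 and 389 CPM in Sham, from 11 to 24 UMIs in each library, and that of the other cells 185 and 185 CPM in CPIP and 203 and 190.1 CPM in Sham. Their Mbp level was 19906 and 23538 CPM in CPIP and 21341 and 9473 CPM in Sham, close to that of the other cells in all but Sham 2 (21594 CPM). The part that depth or joined cells had in this was not tested.

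**Figure D3:**
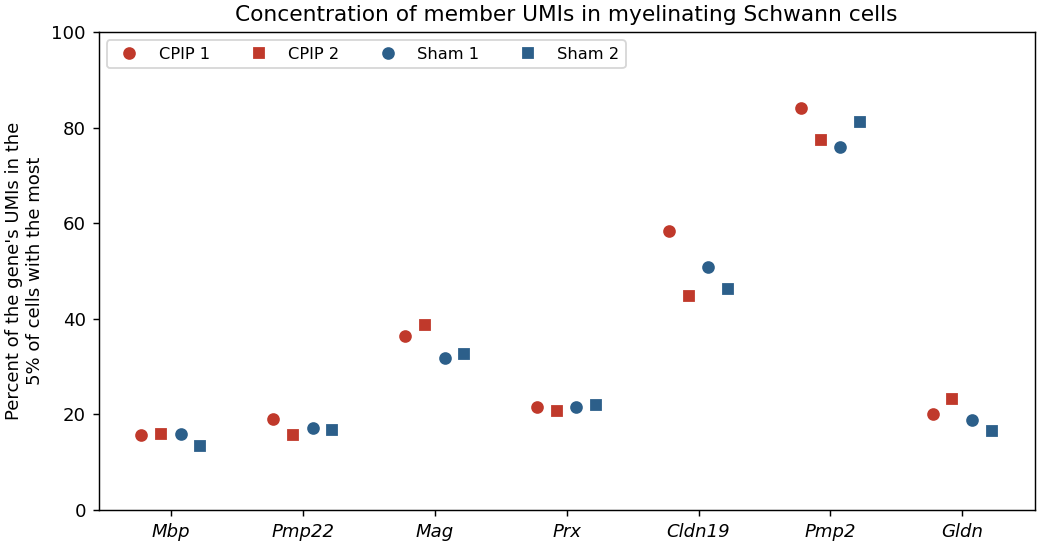
Percent of each member's UMIs held by the 5% of myelinating Schwann cells with the most of it, 1 point per library: red for CPIP, blue for Sham, circles for replicate 1 and squares for replicate 2. Pmp2 lies between 76.0% and 84.2% in all 4 libraries, and Mbp between 13.4% and 15.9%. Ncmap, with 19 UMIs, is left out.

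Between CPIP and Sham, no member passed the test in any class tested. Sums of UMIs per library and class were compared with edgeR's quasi-likelihood test and Benjamini-Hochberg adjustment over all genes of the class, with a call at adjusted p under 0.05. In myelinating Schwann cells 1 of 7206 genes was called (0.0139%), Rpl17, which encodes a ribosomal protein and may share reads with copies (log2 fold change 0.83, SE 0.12, adjusted p = 0.0448). Rpl10a-ps9, a processed copy of a ribosomal gene, was the only gene called in non-myelinating Schwann cells (1 of 8638, 0.0116%; log2 fold change 5.35), in neurons (1 of 13679, 0.00731%) and in endothelial cells (1 of 10142, 0.00986%). In satellite glia 0 of 12869 genes passed edgeR (429 at unadjusted p under 0.05, 3.33%), and DESeq2 called 7. In the sum of all retained cells 0 of 15938 passed edgeR (773 unadjusted, 4.85%), and DESeq2 called 54. In the other named classes, Gldn in neurons was the only tested member with an unadjusted p under 0.05 (log2 fold change −0.75, SE 0.24, edgeR adjusted p = 0.995). Such a p was reached by 3.23% of genes in neurons, 5.18% in endothelial cells, 5.67% in macrophages, 2.27% in fibroblasts, 5.74% in smooth muscle and 6.92% in pericytes. The values below are therefore levels with their spread over 2 libraries a group, each a pool of 3 rats. Leaving out 1 library gave 27 calls in myelinating Schwann cells without Sham 1, 15 without Sham 2, 97 without CPIP 1 and 14 without CPIP 2.

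Mbp and Pmp2 were the 2 members with an unadjusted p under 0.05 in myelinating Schwann cells. Mbp averaged 24469 ± 1069 CPM in CPIP and 20752 ± 225 CPM in Sham (SD, n = 2 each). The fitted difference of CPIP from Sham was 0.23 on the log2 scale (SE 0.08, edgeR adjusted p = 0.881). Pmp2, with the levels given above, had a log2 fold change of −0.57 (SE 0.15, edgeR adjusted p = 0.881). In both genes the CPIP and Sham libraries did not overlap, and 371 of 7206 genes (5.15%) reached such a p. Mag was also lower in both CPIP libraries than in both Sham libraries, by less than its standard error (log2 fold change −0.11, SE 0.14). The groups overlapped for Pmp22 (−0.06, SE 0.08), Prx (0.00, SE 0.11), Cldn19 (0.27, SE 0.27), Gldn (−0.12, SE 0.13) and Ncmap, whose counts were too low to be tested. Pmp2 passed the adjustment without CPIP 1 (−0.86, edgeR adjusted p = 5e-06), without Sham 2 (−0.66, adjusted p = 0.032) and with no low-count filter (−0.55, adjusted p = 0.014). Mbp passed without CPIP 1 (0.27, adjusted p = 0.0046) and with no low-count filter (0.25, adjusted p = 0.019). Without CPIP 2, the values of Pmp22, Prx, Cldn19 and Gldn turned to 0.03, −0.05, −0.23 and 0.09. So 1 of 8 members lay higher and 2 of 8 lower without overlap, where 18.0% of all tested genes lay higher and 16.3% lower.

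**Figure D4:**
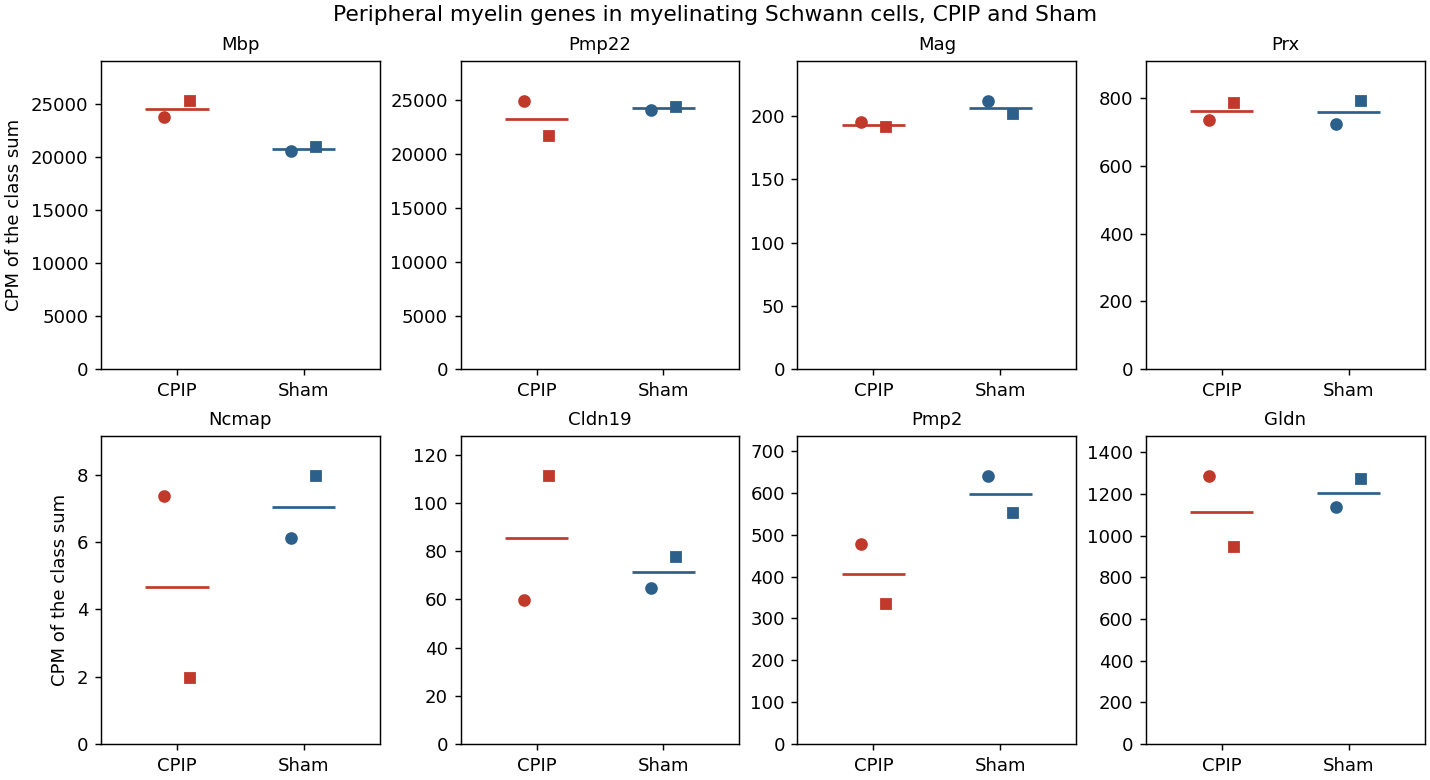
CPM of each member in myelinating Schwann cells of the CPIP (red) and Sham (blue) libraries, circles for replicate 1 and squares for replicate 2, with a line at the mean of each group; all axes start at 0. The groups do not overlap for Mbp (20592 to 25224 CPM over the 4 libraries), Mag (191 to 211 CPM) and Pmp2 (334 to 640.4 CPM).

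Pmp2 was lower in both CPIP libraries than in both Sham libraries in each of the 4 glial cell groups, and passed the test in none of the 3 in which it was run (all but the Pou3f2-Sox10 glia). The same order was found in endothelial cells, with 9 and 8 Pmp2 UMIs in CPIP and 12 and 12 in Sham. It was also found in pericytes, with 1 and 3 UMIs in CPIP and 4 and 11 in Sham (9.61 and 26.3 CPM in CPIP, 31.6 and 57.7 CPM in Sham). Of all genes tested, 21.7% were lower without overlap in endothelial cells and 16.6% in pericytes. For Pmp2 the groups overlapped in neurons (540 UMIs, mean 5.67 CPM in CPIP and 5.21 CPM in Sham), macrophages, fibroblasts and smooth muscle. Satellite glia held 106 and 145 CPM in CPIP 1 and CPIP 2, against 185 and 171 CPM in Sham 1 and Sham 2 (log2 fold change −0.47, SE 0.15, edgeR adjusted p = 0.964). Non-myelinating Schwann cells held 148 and 139 CPM in CPIP and 189 and 195 CPM in Sham (−0.41, SE 0.14, edgeR adjusted p = 0.935). The Pou3f2-Sox10 glia held 264 and 266 CPM in CPIP and 342 and 350.0 CPM in Sham. Together with myelinating Schwann cells these are 4 cell groups without overlap, and 55 of the 7206 genes tested in myelinating cells (0.763%) were lower in CPIP without overlap in all 4. Within 1 class, 18.4% of genes were lower without overlap in non-myelinating Schwann cells and 21.3% in satellite glia. The 4 cell groups come from the same libraries and are not 4 independent results.

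The order also held in each of the 4 clusters that make up satellite glia. These clusters are parts of that class in the same libraries and are not 4 independent results. The share of all genes with this order was not counted per cluster, and in the whole class it was 21.3%. Pmp2 lay at 76.8 to 99.7 CPM in CPIP and 126 to 138 CPM in Sham in the cluster led by Nwd1 and Cxcl11, and at 139 to 230.2 CPM in CPIP and 257 to 265 CPM in Sham in that led by Inhba and Gbp2. It lay at 92.3 to 108 CPM in CPIP and 145 to 157 CPM in Sham in the cluster led by Fabp7, and at 96.9 to 134 CPM in CPIP and 151.2 to 151.7 CPM in Sham in a cluster of 233 cells led by Spp1. Thinned to 1000 UMIs, 9.48% and 12.2% of satellite glia held Pmp2 in CPIP, against 15.05% and 14.4% in Sham. In myelinating Schwann cells without those at or above 10 Pmp2 UMIs the level was 159 and 203 CPM in CPIP and 237 and 213 CPM in Sham, still without overlap. The satellite glia markers summed to 11181 and 12259 CPM in satellite glia of CPIP and 12059 and 13455 CPM in those of Sham, which overlap.

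Mbp lay higher in both CPIP libraries in satellite glia (levels above; log2 fold change 0.18, SE 0.08, edgeR adjusted p = 0.964) and in the Pou3f2-Sox10 glia (1350 and 1346 CPM in CPIP, 1256 and 1302 CPM in Sham). In satellite glia 11.9% of genes lay higher in CPIP without overlap. In non-myelinating Schwann cells the groups overlapped, with 1605 and 1713 CPM in CPIP and 1531 and 1699 CPM in Sham (0.05, SE 0.12). In satellite glia, the summed myelinating Schwann markers were 4051 and 4343 CPM in CPIP and 4574 and 3725 CPM in Sham, which overlapped. That sum includes Egr2 (mean 903 CPM), Dhh (743 CPM) and Cmtm5 (361 CPM) in satellite glia. Dhh and Cmtm5 were higher there than in myelinating Schwann cells, so the sum does not trace RNA of myelinating Schwann cells alone.

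**Figure D5:**
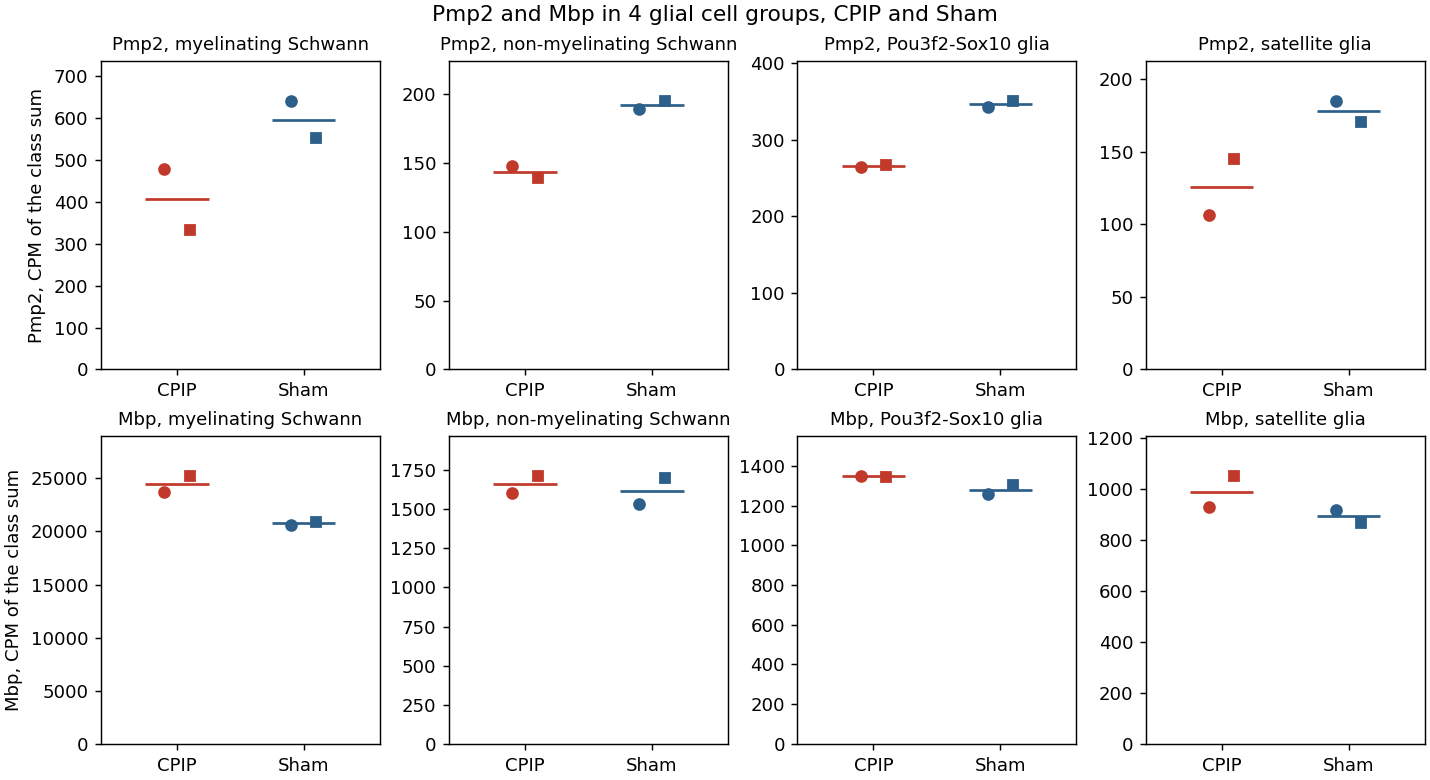
CPM of Pmp2 (top) and Mbp (bottom) in 4 glial cell groups of the CPIP (red) and Sham (blue) libraries, circles for replicate 1 and squares for replicate 2, with a line at the mean of each group; all axes start at 0. Pmp2 is lower in both CPIP libraries in all 4 groups, for example 264 and 266 CPM against 342 and 350.0 CPM in Sham in the Pou3f2-Sox10 glia, and Mbp overlaps in non-myelinating Schwann cells.

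Gldn had a positive value in non-myelinating and a negative one in myelinating Schwann cells, a difference that did not pass the adjustment. In non-myelinating Schwann cells it was higher in both CPIP libraries (levels above, log2 fold change 0.74, SE 0.25, edgeR adjusted p = 0.935), as were 15.7% of genes. In myelinating Schwann cells the groups overlapped. At Leiden resolution 2.0, the unnamed cluster with 203 CPM of Gldn held 601 and 498 cells in CPIP 1 and CPIP 2. It held 507 and 343 cells in Sham 1 and Sham 2. The part that such cells had in the Gldn difference was not tested. Gldn and Pmp2 were the 2 members with an unadjusted p under 0.05 in non-myelinating Schwann cells, as were 5.04% of all genes. Without CPIP 1 the non-myelinating value was 1.02, which sets CPIP 2 alone, the CPIP library with the higher Gldn level, against both Sham libraries. The difference of the CPIP effect, myelinating minus non-myelinating, was −0.86 on the log2 scale (SE 0.21, edgeR adjusted p = 0.375), and 0 of 8724 genes passed that test, with 435 at an unadjusted p under 0.05. The same test against satellite glia called 4 of 12993 genes and no member, with −0.08 (SE 0.12) for Pmp2 and 0.06 (SE 0.10) for Mbp.

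Summed over all cells of a library, no member passed the edgeR test. Prx read 16.7 and 17.2 CPM in CPIP 1 and CPIP 2 and 13.04 and 8.98 CPM in Sham 1 and Sham 2 (log2 fold change 0.63, SE 0.19, edgeR adjusted p = 0.871). Mbp read 941 and 1018 CPM in CPIP and 739.6 and 659 CPM in Sham (0.49, SE 0.10, edgeR adjusted p = 0.871). DESeq2 called Mbp (0.48, DESeq2 adjusted p = 0.026) among 54 of 20883 genes (0.259%). Gldn read 30.1 and 22.7 CPM in CPIP and 22.4 and 14.6 CPM in Sham (0.52, SE 0.24). Of the 8 members, 6 were higher in CPIP without overlap (Mbp, Pmp22, Mag, Prx, Cldn19 and Gldn), Pmp2 was lower and Ncmap overlapped, where 18.1% of all genes were higher and 17.0% lower. Myelinating Schwann cells made up 4.44% and 4.48% of the cells in CPIP and 3.73% and 2.16% in Sham (mean 4.46% ± 0.0267 in CPIP and 2.95% ± 1.11 in Sham, SD, n = 2). The two-sided exact permutation p was 0.33, the smallest that 2 libraries against 2 allow. Without Sham 2 the log2 ratio of the shares was 0.26, and 0.60 with it. In such a sum, more cells of the class and more RNA per cell cannot be told apart; within the class the log2 fold changes of these 6 members were 0.23 (Mbp), −0.06 (Pmp22), −0.11 (Mag), 0.00 (Prx), 0.27 (Cldn19) and −0.12 (Gldn), against 0.49, 0.14, 0.48, 0.63, 0.89 and 0.52 in the sum.

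Other genes of myelination, 88 in 8 lists that hold no further member, were followed beside them. In myelinating Schwann cells 70 of them were tested, 37 had a positive and 33 a negative log2 fold change of CPIP over Sham, the median was 0.02 (0.01 over all genes tested), 6 had an unadjusted p under 0.05 and none passed the adjustment. In non-myelinating Schwann cells the counts were 31 positive and 39 negative of 70, with 7 under 0.05 unadjusted, and in satellite glia 50 and 26 of 76 with 1; none passed in either. In satellite glia 6678 of 12869 genes tested had a positive value.

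Of the compact myelin list, Cd9, a tetraspanin, averaged 4587 ± 226 CPM in myelinating Schwann cells (SD, n = 4) and was 3.03-fold above satellite glia. Mal (959 ± 85.0 CPM), a raft protein, was 16.3-fold above them. Mal and, below, Drp2 are among the markers that named the myelinating Schwann class. Of the adhesion list, Drp2, the partner of periaxin, was at 339.5 ± 37.8 CPM and 226-fold above satellite glia, whereas Dag1 (2356 ± 114 CPM), the dystroglycan gene that completes that complex, was at 0.797 times their level, Itga6 at 7.74 times, Dst at 1.16 times and Cdh1 at 0.383 times. Of the nodal list, Nfasc, which encodes the neurofascins that gliomedin binds on the axon and a glial form at the paranode, was at 559.6 ± 23.9 CPM and 60.95-fold above satellite glia. Sptbn1, Epb41l2 and Cd59 were 2.80-fold, 1.153-fold and 1.63-fold above them.

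Of the transcription factors, Egr2, which drives myelination, was at 1380.3 ± 90.7 CPM in myelinating Schwann cells, 0.827 times the non-myelinating level and 1.53 times that of satellite glia. Pou3f1, which acts before it, was 6.24-fold above non-myelinating Schwann cells and 86.3-fold above satellite glia (884 ± 60.6 CPM); Zeb2 and Nr3c1 were 1.33-fold and 1.12-fold above satellite glia. Of the receptors and signals, Itgb1 (763 ± 42.2 CPM), Dhh (495 ± 33.4 CPM), Cmtm6 (273 ± 40.1 CPM) and Cmtm5 (268 ± 17.1 CPM) lay between 0.666 and 2.52 times the satellite glia level. Of the Charcot-Marie-Tooth list, Ndrg1 was at 6164 ± 452 CPM, 2.95-fold above satellite glia. Nefl, a neuronal gene, was at 260.3 ± 61.9 CPM, Litaf at 151 ± 12.8 CPM and Mtmr2 at 109.7 ± 29.998 CPM. Neuron markers summed to 2621 and 2896 CPM in myelinating Schwann cells of CPIP and 2844 and 2900.1 CPM in those of Sham.

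Genes of immature or repair Schwann cells included Jun at 1293 ± 102 CPM, 0.616 times the non-myelinating level, Ncam1 at 186 ± 14.1 CPM, 0.169 times it, Id2 at 389.9 ± 42.2 CPM and Id4 at 276 ± 38.4 CPM. Of the oligodendrocyte list, which also holds Mag, Aspa was at 115 ± 6.60 CPM, Ermn at 2.15 ± 1.595 CPM, Mobp at 0.498 ± 0.997 CPM and Hapln2 at 0.306 ± 0.611 CPM. Over the 88 genes, 9 were at least 8-fold above satellite glia in every library (among them Mal, Pllp, Fa2h, Drp2, Gjb1, Nfasc, Gjc3 and Pou3f1). Above non-myelinating Schwann cells there were 5 (among them Drp2, Gjb1, Nfasc and Gjc3). Across all genes that averaged at least 1 CPM over the classes compared, 1.57% and 0.58% were. Mal, Pllp, Fa2h, Drp2 and Gjb1 are markers that named the myelinating Schwann class, so their excess there is partly set by the naming. The 6 with an unadjusted p under 0.05 between CPIP and Sham in myelinating Schwann cells, chosen after their values were seen, were Mtmr2 (log2 fold change 0.63, SE 0.18), Cnp (1.12, SE 0.37), L1cam (−0.56, SE 0.21), Gap43 (−0.42, SE 0.16), Nab2 (1.33, SE 0.54) and Adgrg6 (0.37, SE 0.17). Cnp rested on 1 library, with 279.7 and 995 CPM in CPIP 1 and CPIP 2 and 329 and 247 CPM in Sham 1 and Sham 2.

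The 10 genes most like the members were found over the 9 named classes, by Pearson's correlation of the mean log2(CPM + 1) with the mean of the 8 members, among 10851 genes. Among them were Gjc3 (r = 0.987), Cyp3a9 (0.978), Mme (0.977), Padi2 (0.968), Gjb1 (0.967), Cntf (0.967), Bcas1 (0.965) and a gene the files give only as ENSRNOG00000070742 (0.965). The members themselves had values between 0.853 (Pmp2) and 0.979 (Mag). Each member is part of that mean, so its value is partly built in and does not compare with those of the other genes. The 9 points share libraries, and the correlations are a description. Gjb1 and Bcas1 are among the markers that named the myelinating Schwann class. Mme averaged 153 CPM in myelinating Schwann cells, 5.45 CPM in non-myelinating Schwann cells and 2.62 CPM in satellite glia, and Bcas1, one of the naming markers, 1263 CPM, 60.7 CPM and 1.08 CPM.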

How the data were processed

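Single-cell libraries of rat L4-L6 dorsal root ganglia (2 CPIP and 2 Sham, 3 rats pooled in each) were analysed. The deposited matrices hold unnormalised UMI counts for each gene in each barcode, per the file headers; per the labels' protocols, they come from BD Rhapsody whole-transcriptome libraries. Aligner, genome build and cell calling: not given in the sources used here. Symbols were taken as deposited, so genes with near-identical copies are uncertain.

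Barcodes with at least 200 genes and at most 25% mitochondrial UMIs were kept (scanpy 1.11.5, Python 3.11.15). Scrublet's calls were removed as doublets, 171 to 255 per library; in CPIP 1 it marked 2, which was taken as a failed threshold, and the 5% of cells with the highest scores (609) were removed instead. Retained cells were 11566, 11714, 11100 and 11058 in CPIP 1, CPIP 2, Sham 1 and Sham 2, with median depths of 3686.5 to 4255.5 UMIs. Clusters came from 2000 variable genes without the members, 30 principal components, 15 neighbours and Leiden resolution 1.0, and were named from marker lists (144 of 147 markers found); the naming rule was set after the clusters were seen. UMIs were summed per library and class and tested with edgeR 4.0.16 (quasi-likelihood, TMM factors, low-count filter, limma 3.58.1, R 4.3.3) with Benjamini-Hochberg adjustment over all genes of a class. DESeq2 1.42.0 was an alternative. Libraries are the replicates. The edgeR step was tested on simulated data: of 200 genes changed 2-fold, it recovered 183 with 16 false calls among 7206 genes of myelinating Schwann cells, and 134 with 29 false calls among 12869 genes of satellite glia.

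The named genes were all 8 members, up to 4 non-members per myelin list by level in myelinating Schwann cells, the 10 genes most alike among those with at least 10 CPM in 1 class, and called genes where there were at most 5. Some genes that this rule names are not reported here. The members and lists were chosen with earlier results of these data known. Exact 95% intervals cover counting error only. Samples with the same replicate number did not deviate together, so the numbers were not used as pairs.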

Additional observations from a re-analysis of the deposited data

Results flagged for a closer look

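In myelinating Schwann cells over satellite glia, the Mag ratio of CPIP 2 was 1144, against 689 in CPIP 1, 712 in Sham 1 and 720.02 in Sham 2, and stood apart from the other 3 libraries. It rests on 4 Mag UMIs in satellite glia of CPIP 2. It was 1 of 21 ratios checked, and chance alone marks about 1 in 20.

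Mbp pointed in opposite directions in different classes. Its log2 fold change of CPIP over Sham was 0.23 in myelinating Schwann cells and 0.18 in satellite glia, where both CPIP libraries lay above both Sham libraries. It was −0.27 in macrophages and −0.49 in pericytes, where both lay below. Of all genes tested, 18.0% in myelinating Schwann cells and 11.9% in satellite glia lay higher in CPIP without overlap. Lower without overlap were 18.6% in macrophages and 16.6% in pericytes. Pericytes held 11 and 16 Mbp UMIs in CPIP and 18 and 37 in Sham. The differences from macrophages and pericytes were not tested.

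Gldn had a log2 fold change of 0.74 in non-myelinating Schwann cells and −0.75 in neurons (78 and 86 UMIs in CPIP, 184 and 124 in Sham), without overlap in either. This difference was not tested. Of all genes, 15.7% lay higher in CPIP without overlap in non-myelinating Schwann cells, and 18.0% lay lower in neurons.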

How the results depend on the processing

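The alternatives gave 367 member fold changes between CPIP and Sham in myelinating and non-myelinating Schwann cells, satellite glia and all cells. Of these, 335 kept their direction and side of the threshold, 8 passed the threshold and 24 turned their sign. Pmp2 was negative in all 56 of its values (−1.23 to −0.00) and Mbp positive in 55 of 56. These are refits of the same libraries, not separate results. Other classes were left out, and some had the other sign in the reported fit. Pmp2 was 0.13 in neurons, and Mbp was −0.27 in macrophages and −0.49 in pericytes. The 7 members at least 8-fold above satellite glia stayed 7 under every alternative run. The 6 above non-myelinating Schwann cells became 7 without CPIP 2, with Gldn. Both comparisons take 0 UMIs as lower. Without that rule, Ncmap leaves both the 6 and the 7 of the comparison with non-myelinating Schwann cells. Of 119 class ratios, 95 moved by less than 1 SD and none reversed. The log2 ratio of the myelinating Schwann share lay between 0.26 and 1.05 with 1 library left out (0.60 with all). Few UMIs limit Ncmap, Cldn19 and Mag, and the stricter cell filter left 64 to 199 myelinating cells per library. With doublets kept, with members among the variable genes and at resolution 2.0, each cluster took the reported class of most of its cells. At resolution 2.0 this class need not match the name the cluster got from its markers, which was used above for Gldn and Mag. The alternatives were not run with those marker names.

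Calls in myelinating Schwann cells (1 in the reported fit) were 0 with no normalization factor, 28 with no low-count filter, 0 with DESeq2, 0 with doublets kept, 0 with the stricter filter, 0 with members among the variable genes and 14 to 97 with 1 library left out. In non-myelinating Schwann cells (1) they were 0 with no factor, 61 with no low-count filter, 6 with the stricter filter, 2 at resolution 2.0 and 2 to 159 with 1 library left out. In satellite glia (0) they were 1 with no low-count filter, 7 with DESeq2 and 0 to 319 with 1 left out. In all cells (0) they were 54 with DESeq2 and 0 to 580 with 1 left out. In the other classes (2) they were 1 with no factor, 222 with no low-count filter, 13 with DESeq2, 1 with the stricter filter and 52 to 1300 with 1 left out. A fit with 1 library left out assumes that the lone library varies like the other group.

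With a replicate block, calls were 3 in myelinating Schwann cells, 0 in non-myelinating Schwann cells and 44 in the other classes. Same-numbered samples shared only a number (correlation of deviations −0.06 in myelinating Schwann cells and −0.22 over all cells). The crossed replicate block, chosen after seeing the data, gave 4 calls in myelinating Schwann cells and 181 in the other classes.

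Values that turned their sign are given with their range over the fits that each leave out 1 library, and the cause was not tested. In myelinating Schwann cells Prx was −0.00483 with DESeq2 size factors, −0.195 with the stricter filter and −0.00755 at resolution 2.0, and −0.0595 to 0.0628 with 1 library left out. In those fits Pmp22 ranged between −0.172 and 0.0286, Cldn19 between −0.234 and 0.656 and Gldn between −0.361 and 0.0896, each reversed without CPIP 2. In non-myelinating Schwann cells Mbp ranged between −0.0266 (without Sham 1) and 0.129, and Pmp22 between −0.119 and 0.093. Pmp22 there was 0.0425 with the stricter filter and 0.0133 at resolution 2.0. Mag ranged between −0.256 and 0.363 and was −0.363 with doublets kept, −0.292 with members among the variable genes and −0.0486 at resolution 2.0. In satellite glia Prx ranged between −0.0533 and 0.536, Gldn between −0.822 and 0.714 and Pmp22 between −0.0218 and 0.0728, and Pmp22 was −0.00313 with the stricter filter. In all cells Ncmap ranged between −1.31 and 0.447.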

Other observations

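Among neurons, levels of members differed between clusters, each named by its leading genes. Mbp, pooled over the libraries, ran from 33.8 CPM in the cluster led by Iapp and Crh to 211 CPM in that led by Pvalb. Gldn averaged 22.2 ± 1.25 CPM in the cluster led by Sst and Nppb (642 cells, 150 UMIs), which encode itch-related neuropeptides, 6.57 ± 1.95 CPM in that led by Mrgprb4 and 0.996 CPM in that led by Pvalb (SD, n = 4 libraries). Pooled over the libraries, Gldn stood at 5.62 CPM in the cluster led by Iapp (3702 cells) and 3.51 CPM in that led by Cbln2. It stood at 1.24 CPM in the cluster led by Nmu, 0.908 CPM in that led by Adcyap1 and 0.198 CPM in that led by Pnoc. In the Mrgprb4 cluster it lay at 5.17 to 5.79 CPM in CPIP and 5.86 to 9.46 CPM in Sham.

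Pmp22 had another order. It averaged 1402 ± 15.3 CPM in the cluster led by Nmu and Tafa4, 1168 ± 62.6 CPM in that led by Cbln2, 848 ± 111 CPM in that led by Pvalb, 518 ± 36.1 CPM in that led by Mrgprb4 and 237 ± 15.1 CPM in that led by Sst and Nppb. Pooled over the libraries, Pmp22 stood at 901 CPM in the cluster led by Iapp, the largest with 3702 cells. It stood at 619 CPM in that led by Adcyap1 and 225 CPM in that led by Pnoc. These are levels over clusters of the same cells and carry no test.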
